A study of Drosophila melanogaster with 9 samples.

Results

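The 92 genes described here encode the proteins of the cytosolic ribosome of Drosophila melanogaster and their duplicates. They were chosen by symbol, as all rows of the deposited count table whose name is that of an RpL or RpS gene, and they are 92 of 17874 genes listed. Of these, 79 are the main copies, 47 for the large and 32 for the small subunit, and 13 are paralogs, 7 of large and 6 of small subunit proteins. The tandem pair RpS14a and RpS14b, which encode one protein, was kept with the main copies.

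RNA was taken from hemocytes, the blood cells of the larva, bled from third-instar larvae at 25 °C, with 300 larvae pooled in each of 9 libraries. The W1118 control, UAS-BCR-ABL p210 and UAS-BCR-ABL T315I had 3 biological replicates each. BCR-ABL is the human fusion kinase of chronic myeloid leukaemia, p210 is its common form, and T315I is a kinase domain mutant that resists imatinib. The labels name a UAS transgene but neither the driver nor the cells that expressed it, and they give no age in days, sex or transgene for the control, so strain background, depth and transgene cannot be told apart in any comparison with the control.

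Ribosomal proteins are needed in matched amounts, are made from genes scattered over the genome, and have mRNAs that are among the most abundant of growing cells. In flies, loss of a single copy of many of these genes gives the Minute phenotype of slow growth and thin bristles. Their mRNAs begin with a stretch of pyrimidines through which the Tor kinase, the 4E-BP Thor and the La-related protein larp control translation in animals. Several fly ribosomal proteins have a duplicate gene, known mostly from expression in testis or ovary, and a few relatives are not ribosomal proteins at all but assembly factors that hold a place in the immature subunit.

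The libraries held 5.40 to 9.84 M counts in the control, 14.48 to 18.16 M in p210 and 13.86 to 15.72 M in T315I, and 3 counts amount to 0.170 to 0.554 CPM (counts scaled to library totals of 1 M, after TMM scaling) depending on the library, which covers only the error of counting. Plasmatocyte markers, 13 of 13 of them detected, summed to 27336 to 31930 CPM in the control, 32602 to 50529 in p210 and 37277 to 47778 in T315I. Of these markers 6 were called higher in p210 and 4 in T315I, none lower, with median log2 fold changes of 0.41 and 0.27. Over all tested genes 26.9% and 20.5% were called higher. With their sum higher in every transgene library, scaling to it, used below, moved the median of all tested genes down, to -0.45 and -0.49. Lamellocyte markers summed to 3331 to 8199, 14641 to 20262 and 15995 to 18942 CPM, and crystal cell markers to 4234 to 5875, 3746 to 4201 and 4000 to 5164 CPM. Markers of the fat body, an organ that can be torn during bleeding, summed to 39006 to 98322 CPM in the control against 4248 to 6130 in p210 and 7954 to 12122 in T315I. In every control library the fat body sum was above the plasmatocyte sum. Muscle markers summed to 1285 to 2743, 442 to 510 and 477 to 568 CPM. Of the defining markers, atilla, PPO1 and Adh were at 0 in all libraries, and each lies under other genes in the annotation. What part these tissues had in the results below was not tested, and in these bulk libraries fewer cells of a type and less RNA per cell cannot be told apart.

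The main copies held a large share of all counts in every group. Their share was 10.9, 10.3 and 9.37% in the 3 control libraries, 11.7, 9.15 and 7.86% in p210 and 9.60, 9.17 and 9.05% in T315I. The 3 groups overlapped, with means of 10.2 ± 0.767%, 9.56 ± 1.94% and 9.28 ± 0.289% (SD, n = 3 each). The large subunit genes took more of these counts than the small subunit genes. The ratio of large to small subunit counts was 1.39, 1.40 and 1.39 in the control, 1.44, 1.46 and 1.45 in p210 and 1.45, 1.45 and 1.45 in T315I. All 6 transgene libraries lay above all 3 control libraries and the p210 and T315I libraries overlapped. Such a lack of overlap with the control was common, at 61.6% of all tested genes in p210 and 58.2% in T315I, in either direction.

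**Figure D1:**
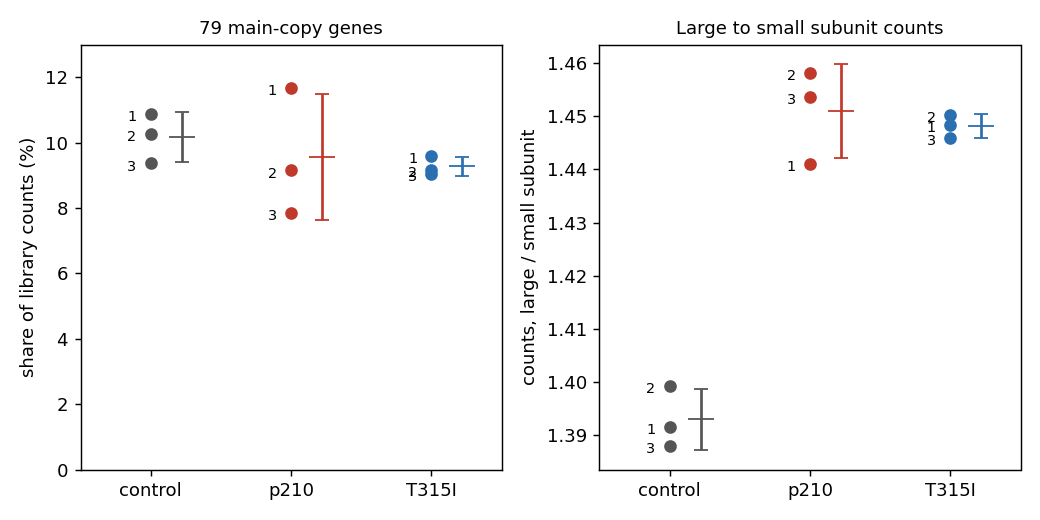
Left, share of each library's counts held by the 79 main-copy ribosomal protein genes, in percent, with 1 numbered point per library and the mean ± SD of 3 libraries beside it. Right, the ratio of large to small subunit counts on an axis that does not start at 0; the control libraries lie between 1.39 and 1.40 and the transgene libraries between 1.44 and 1.46.

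Not every member could be counted. RpS6, the small subunit protein that S6 kinase phosphorylates, RpL41 and the paralog RpS10a were at 0 in all 9 libraries, and RpL7-like, a relative of an assembly factor, had 2 counts in control replicate 2 and none elsewhere. In the annotation other genes cover nearly all their exons: 2.43% of the exonic length of RpS6 was free of other genes, 1.23% of RpL7-like, and 0% of RpL41 and RpS10a. Across the table, 1990 of 2007 protein-coding genes with under 3% of their exons free were at 0 in all libraries, against 307 of 7869 with all exons free. A 0 for these 4 genes is therefore not read as absence. Of the other main copies, RpS9 had 49.7% of its exonic length free, RpL22 65.7% and RpL23A 68.1%, and 50 of the 79 had all of it free.

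Per unit of annotated exon length the main copies were far from equal. Over the 76 main copies with at least 50% of their exons free, the mean level ran from 256 to 3053 CPM per kb of free exon, an 11.9-fold range, with a median of 1380 and the middle 50% between 1098 and 1842. RpL39, a short protein of the wall of the exit tunnel, was highest at 3053 CPM per kb, followed by RpS27A, which is made as a fusion with ubiquitin, at 2982, and RpL23 at 2609. RpS14b was lowest at 256 CPM per kb, with RpS10b at 303 and RpL34b at 358. The length takes in every annotated exon, not only those of the mRNA that was expressed. It was 288 nucleotides in all for RpL39 and 1557 for RpS10b. How far the annotated length set the range and the order was not tested. RpS14b and RpS14a can share reads, so their split is uncertain. RpL34b and RpS10b each have a paralog in the table, at 0 for the latter.

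The comparison of p210 with the control asks how p210 hemocytes differ from those of W1118. Few main copies passed the test. Of 77 tested, 2 rose, RpL22 and RpL39, and none fell, which is 2.60% of them, while over all 9978 tested genes edgeR's quasi-likelihood test called 57.1%, 26.9% higher and 30.3% lower. The count of 0 lower stood beside 6 main copies with an unadjusted p under 0.05, all of them higher. DESeq2 called 5 higher and none lower, and limma-voom 2 and none. The fitted changes were small and narrow. The median log2 fold change was 0.02 over the main copies and 0.05 over all genes, and the SD across genes was 0.195 against 1.55. All 77 had a 95% interval that stayed within a 2-fold change either way, as did 42.6% of all tested genes. One main copy, RpL22, moved by more than 0.5 on the log2 scale, as did 58.2% of all tested genes.

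In T315I against control the picture was similar, and it rests on the same 3 control libraries. One main copy rose, RpL22, and none fell, beside 49.3% of all tested genes called, 20.5% higher and 28.7% lower. An unadjusted p under 0.05 was reached by 3 main copies, 1 of them higher, and DESeq2 called 1 higher and 3 lower, limma-voom 1 and none. The median log2 fold change was -0.04 over the main copies and -0.02 over all genes, with an SD across genes of 0.218 against 1.30. The 95% interval lay within a 2-fold change for 75 of 77, against 45.9% of all tested genes. The exceptions were RpLP2, whose interval reached down to -1.05, and RpL22, whose interval reached up to 1.05.

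**Figure D2:**
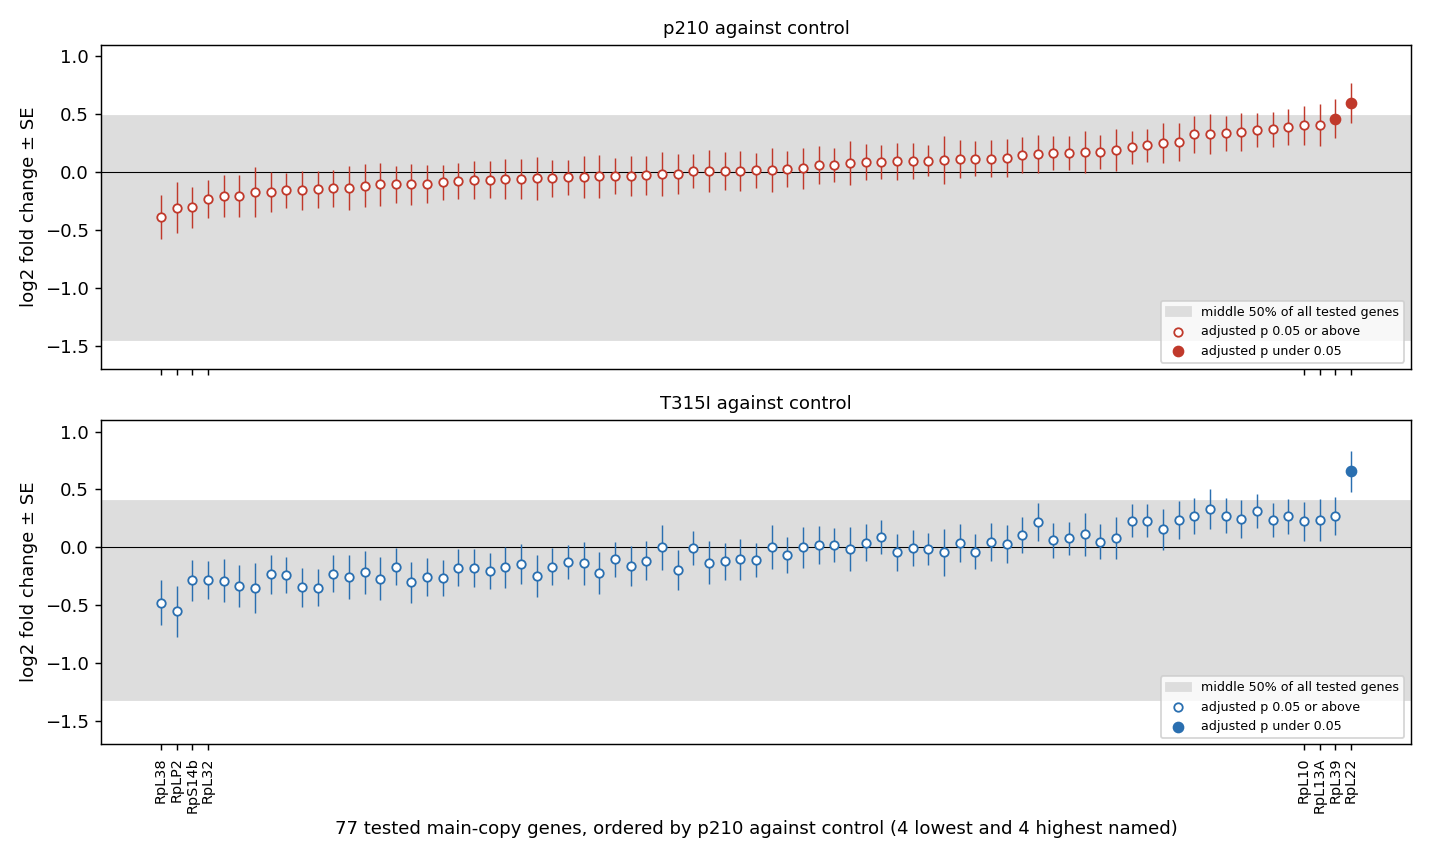
Log2 fold change ± SE of the 77 tested main-copy genes in p210 (above) and T315I (below) against control, in the order of the p210 values, from 3 libraries per group; filled points have an adjusted p under 0.05. The grey band spans the middle 50% of all tested genes; the filled points are RpL22 and RpL39 in p210 and RpL22 in T315I, and the main copies run from -0.39 to 0.60 and from -0.55 to 0.66.

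The libraries were also compared without a model. In p210, 5 main copies lay wholly above the control libraries, RpL17, RpL22, RpL35A, RpL39 and RpS19a, and none wholly below, beside 31.2% and 30.4% of all tested genes (61.6% in all). In T315I, 13 lay wholly above and 8 wholly below, beside 30.3% and 27.8% of all tested genes (58.2% in all). The T315I libraries were the tightest: over the main copies the median coefficient of variation was 3.55%, against 13.1% in the control and 18.8% in p210. Over all genes T315I was tightest too, with 9.98%, but the control, with 23.1%, varied more than p210, with 15.8%.

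RpL22 stood first among the main copies in both comparisons. RpL22, on the X chromosome (dm6, X:762560-765130, minus strand), encodes an RNA-binding protein of the large subunit. It was at 383, 400 and 297 CPM in the control, 640, 559 and 435 CPM in p210, and 549, 620 and 534 CPM in T315I. Every transgene library lay above every control library. The log2 fold change was 0.60 ± 0.17 (SE) in p210 (adjusted p = 0.0159) and 0.66 ± 0.17 in T315I (adjusted p = 0.0139). Set against the median main copy, RpL22 was higher by 0.58 and 0.70, and in all 20 alternative settings it ranked first of the 77, by 0.52 to 0.68 and 0.66 to 0.82. The call in p210 was lost without control replicate 3, its lowest library (0.44, adjusted p = 0.0513), with upper-quartile scaling (0.44, adjusted p = 0.0693), with the filter of 5 CPM in 3 libraries (0.40, adjusted p = 0.0864) and with only the 2 groups compared (0.53, adjusted p = 0.0675). Scaled to plasmatocyte markers alone the values were 0.12 and 0.18, and both calls were lost. The medians of all tested genes were then -0.45 and -0.49. A long noncoding RNA, at 0 in all libraries, covers part of the exons of RpL22.

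RpL39 (2R:24061853-24062431, minus strand) was at 830, 691 and 624 CPM in the control, 1176, 940 and 839 in p210 and 893, 797 and 902 in T315I. All p210 libraries lay above the control, the lowest of them by little, and the T315I libraries overlapped with it. The change in p210 was 0.46 ± 0.16 (adjusted p = 0.0368), and the value in T315I was 0.27 (adjusted p = 0.195). Scaled to plasmatocyte markers the p210 value turned to -0.01, beside a median of -0.45 over all tested genes. The call was lost in 12 of 20 alternatives. Beside that scaling these were RLE scaling (0.41, adjusted p = 0.0558), upper-quartile scaling (0.30, adjusted p = 0.185), the filter of 5 CPM in 3 libraries (0.26, adjusted p = 0.181), only the 2 groups compared (0.40, adjusted p = 0.124), thinning to the smallest library (0.42, adjusted p = 0.0681) and 6 of the 9 fits that left out a library. The libraries were control replicate 2 (0.44, adjusted p = 0.0854) and 3 (0.33, adjusted p = 0.117), p210 replicate 1 (0.34, adjusted p = 0.0959) and 2 (0.51, adjusted p = 0.0714), and T315I replicate 2 (0.48, adjusted p = 0.0571) and 3 (0.48, adjusted p = 0.0606).

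Below RpL22 and RpL39 no large subunit gene passed the test. RpL13A, at 1589, 1353 and 1186 CPM in the control and 2290, 1724 and 1460 in p210, had a log2 fold change of 0.41 (adjusted p = 0.0822). RpL10, a protein that joins the large subunit late, in the cytoplasm of yeast, had 0.40 (adjusted p = 0.0615), and RpL17 0.39 (adjusted p = 0.0526). In T315I, RpL35A had 0.32 (adjusted p = 0.0982) and RpL18 0.27 (adjusted p = 0.163). Both had T315I libraries wholly above the control, from 939 to 1000 CPM against 721 to 816 for RpL35A. Some of these calls changed with the libraries used. RpL10 was called in p210 when control replicate 1 was left out (0.52, adjusted p = 0.0349) and likewise for p210 replicate 3 (0.54, adjusted p = 0.0300), and RpL13A in the same fits (0.57, adjusted p = 0.0270, and 0.55, adjusted p = 0.0408). RpL35A was called in T315I without p210 replicate 1 (0.34, adjusted p = 0.0376) and with only the 2 groups compared (0.31, adjusted p = 0.0464).

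RpL38 and RpLP2 were at the low end in both comparisons without passing edgeR's test, and in T315I DESeq2 called both lower (adjusted p = 0.0295 and 0.0300), as did edgeR with upper-quartile scaling, plasmatocyte marker scaling or the filter of 5 CPM in 3 libraries. RpL38, a protein whose loss in mice changes the translation of Hox mRNAs, was at 1160, 1041 and 853 CPM in the control, 918, 747 and 671 in p210 and 753, 578 and 862 in T315I. The groups overlapped, and the log2 values were -0.39 ± 0.19 (adjusted p = 0.112) and -0.48 (adjusted p = 0.0645). Without control replicate 3 both passed, with -0.54 (adjusted p = 0.0419) and -0.59 (adjusted p = 0.0348). RpL36 in T315I had -0.35 (adjusted p = 0.209).

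The acidic stalk of the large subunit, which recruits elongation factors, is built from RpLP0, RpLP1 and RpLP2. RpLP2 was at 1641, 1592 and 997 CPM in the control, 1441, 1018 and 963 in p210 and 1026, 862 and 996 in T315I. Control replicate 3 sat apart from the other control libraries, at the level of the transgene libraries. The log2 values were -0.31 ± 0.22 (adjusted p = 0.263) and -0.55 ± 0.22 (adjusted p = 0.0647), and without control replicate 3 they were -0.54 (adjusted p = 0.0302) and -0.75 (adjusted p = 0.0113). RpLP0 was at 2445, 1981 and 1797 CPM in the control and at 1530 to 2182 and 1713 to 1853 in p210 and T315I, with log2 values of -0.17 and -0.23. RpLP1 ranged from 1763 to 2120 CPM in the control and had log2 values of 0.09 and -0.04. Neither passed the test.

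Of the 31 tested small subunit genes none passed in either comparison, with a median log2 value of -0.03 in p210 and -0.12 in T315I, against 0.06 and 0.00 over 46 large subunit genes. RpS29 was at 1975, 1608 and 1620 CPM in the control and 1352, 1284 and 1457 in T315I, wholly below, with -0.35 (adjusted p = 0.0947), and DESeq2, the filter of 5 CPM and plasmatocyte marker scaling each gave a call. RpS14b was at 194, 187 and 142 CPM in the control and 173, 138 and 112 in p210 (-0.31, adjusted p = 0.162), and it was called when control replicate 3 was left out (-0.47, adjusted p = 0.0346) and likewise for p210 replicate 1 (-0.46, adjusted p = 0.0454), with the filter of 5 CPM (-0.51, adjusted p = 0.0381) and when scaled to plasmatocyte markers (-0.77, adjusted p = 0.0457). RpS3, which lines the entry of the mRNA channel, had 0.12 and 0.03. RpS27A and RpL40, both made as ubiquitin fusions, had -0.07 and -0.20, and 0.11 and 0.04. RpL32, a gene often used as the reference in fly quantitative PCR, was at 1412, 1151 and 1085 CPM in the control, 1218, 1033 and 848 in p210 and 1008, 976 and 1016 in T315I, with -0.23 (adjusted p = 0.240) and -0.28 (adjusted p = 0.177). It was called lower in both with the filter of 5 CPM in 3 libraries (-0.43, adjusted p = 0.0396, and -0.42, adjusted p = 0.0471) and in T315I when scaled to plasmatocyte markers (-0.76, adjusted p = 0.0462).

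The main copies were also split by what their genes hold and where they lie. The 27 tested hosts of small nucleolar RNAs had a median of 0.06 in p210 and -0.01 in T315I, and the other 50 had 0.01 and -0.12. The 13 tested genes on the X chromosome had -0.04 and -0.12, and the 64 on the autosomes 0.02 and -0.04. Across the main copies Spearman's rho of log2 fold change with exonic length was 0.147 and 0.129, and across 9972 tested genes 0.164 and 0.168; genes are not independent replicates, and these values are given as a description.

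The third comparison sets T315I directly against p210. No main copy passed the test, none had an unadjusted p under 0.05, and neither DESeq2 nor limma-voom called any. Over all tested genes 0.01% were called, a single gene, dpr4, which is no ribosomal protein gene and was named after its value was seen. All 77 main copies had a 95% interval within a 2-fold change, as did 63.5% of all tested genes. The values ran from -0.25 for RpLP2, with RpS29 and RpS28b at -0.20 and RpL23 at -0.19, up to 0.07 for RpS4, 0.06 for RpL22 and 0.02 for RpL6 and RpS14b. RpS10b, at 418, 431 and 432 CPM in T315I and 546, 466 and 444 in p210, was wholly below and the one main copy without overlap, beside 16.7% of all tested genes, 9.57% higher and 7.09% lower. The median of -0.10 turned to 0.05 without p210 replicate 1 and was -0.19 without p210 replicate 3.

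Those p210 libraries carried the largest shift of the whole set of genes. The 77 main copies of a library moved together: relative to the mean of its group, the median main copy was at 0.28, -0.04 and -0.25 (log2) in p210 replicates 1 to 3, at 0.18, -0.04 and -0.15 in the control and at 0.02, 0.02 and -0.02 in T315I. In p210, replicate 1 was the highest library for 76 of 77 main copies and for 43.0% of all tested genes, and replicate 3 the lowest for 76 of 77 and for 37.0%. RpL23A was the exception, with 565, 546 and 586 CPM. In the control, replicate 1 was the highest for 72 of 77, beside 31.7% of all tested genes. Once each library was centred on its median main copy, the median coefficient of variation was 2.28% in place of 18.8% in p210, 6.94% in place of 13.1% in the control and 3.41% in place of 3.55% in T315I. The centring used the same 77 genes, so some fall was built in.

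**Figure D3:**
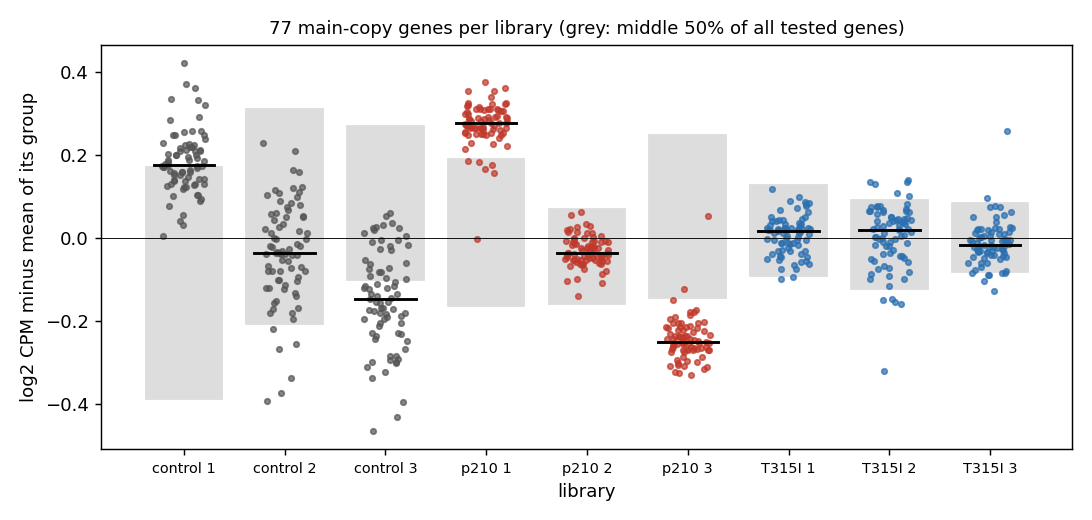
Each point is 1 of the 77 tested main-copy genes in 1 library, as log2 CPM minus the mean of its group; the bar is the median and the grey box spans the middle 50% of all tested genes. In p210 the genes of replicate 1 centre on 0.28 and those of replicate 3 on -0.25, while the T315I libraries centre between -0.02 and 0.02.

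Library depth and 3 sums of cell type markers were set beside that shift, and none of these followed its order in both p210 and the control. The sum of sta and Rack1, ribosomal protein genes outside the members, did. It was 5150, 3976 and 3958 CPM in control replicates 1 to 3 and 5579, 4726 and 4143 in p210. Across p210 replicates 1 to 3 the plasmatocyte markers summed to 32602, 46692 and 50529 CPM, lowest where the ribosomal protein genes were highest, and the lamellocyte markers to 14641, 20262 and 18850. These 3 libraries held 18.16, 14.95 and 14.48 M counts. The control did not follow either order: from replicate 1 to the third, in which the ribosomal protein genes were lowest, the plasmatocyte markers summed to 29315, 27336 and 31930 CPM and the libraries held 5.40, 8.24 and 9.84 M counts. There the fat body markers summed to 98322, 62539 and 39006 CPM, in the same order as the ribosomal protein genes, while in p210 they summed to 6130, 4248 and 4881 CPM, not in that order. Their part in the shift was not tested. The calls depended on these libraries: without p210 replicate 3, 11 main copies were called higher in p210, without control replicate 1, 8 were, and without control replicate 3, 3 were called lower and none higher.

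The paralogs were described apart from the main copies. Of 10 tested, 6 fell and 1 rose in both comparisons with the control, which share their control libraries, and none was called between T315I and p210. Over all tested genes 30.3% and 28.7% were called lower. All 6 are duplicates at low levels, under 43 CPM in every library. RpL22-like, known from the fly germ line, was at 8.68, 32.2 and 37.5 CPM in the control, 2.43, 2.55 and 3.08 in p210 and 6.99, 3.45 and 4.63 in T315I, with log2 fold changes of -3.29 ± 0.51 (adjusted p = 0.00151) and -2.39 ± 0.49 (adjusted p = 0.00601). For every 1000 counts of RpL22 there were 22.6, 80.6 and 126 of RpL22-like in the control, 3.80, 4.56 and 7.07 in p210 and 12.7, 5.56 and 8.68 in T315I.

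The other 5 had the same form, with control replicate 1 the lowest control library for each, as it was for 39.7% of all tested genes. RpL10Aa was at 9.78, 42.4 and 28.0 CPM in the control and at most 5.05 in p210 and 7.20 in T315I (-2.87, adjusted p = 0.00185, and -2.20, adjusted p = 0.00737). RpS5b, the ovary-enriched duplicate of RpS5a, was at 7.38, 25.7 and 20.7 CPM in the control and at most 3.29 and 4.94 (-3.14, adjusted p = 0.00202, and -2.40, adjusted p = 0.00805). RpL37b had log2 fold changes of -2.92 and -2.49, and RpS28-like of -3.06 and -1.85. RpS19b, whose control libraries were at 17.5, 30.1 and 30.8 CPM, fell by 1.21 and 1.08. None of the 6 overlapped with the control in either comparison, and 30.4% and 27.8% of all tested genes lay wholly below it. RpS28a was too low for the test on all 9 libraries. It had 26 counts over the control libraries against 2 over p210, a ratio of 23.6 after scaling (95% counting interval 5.91 to 205). Over T315I it had 10, a ratio of 4.54 (2.12 to 10.5). These intervals pool the 3 libraries of a group and leave out the spread between them. For every 1000 counts of RpS28b there were 0.208, 1.27 and 0.494 of RpS28a in the control and 0.0322, 0 and 0.0616 in p210. The T315I libraries, with 0.270, 0.0628 and 0.200, overlapped with the control. RpS28a was tested in 8 of the alternatives, those with no filter or with a library left out. It was called lower in p210 in all 8 and in T315I in 1.

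Markers of testis and germ line moved beside these duplicates. Of 9 tested, 7 fell in both comparisons, beside 30.3% and 28.7% of all tested genes, and the summed level of the list was 220, 704 and 371 CPM in the control, 131 to 137 in p210 and 168 to 179 in T315I. The spermatocyte gene aly was at 4.62, 17.8 and 12.6 CPM in the control and fell by 3.44 and 2.28 on the log2 scale, and vas, the germ line helicase, fell by 3.50 and 2.81. Control replicate 1 was the lowest control library for both, as it was for the duplicates and for 39.7% of all tested genes. Not all markers went that way: bam rose in p210 (1.82, adjusted p = 0.0337) and aub in both (1.37 and 1.53). Without control replicate 2 or any one p210 library no marker was called higher in p210, and without control replicate 2 or T315I replicate 2 or 3 none was in T315I. The part of gonad tissue in the change of the duplicates was not tested.

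**Figure D4:**
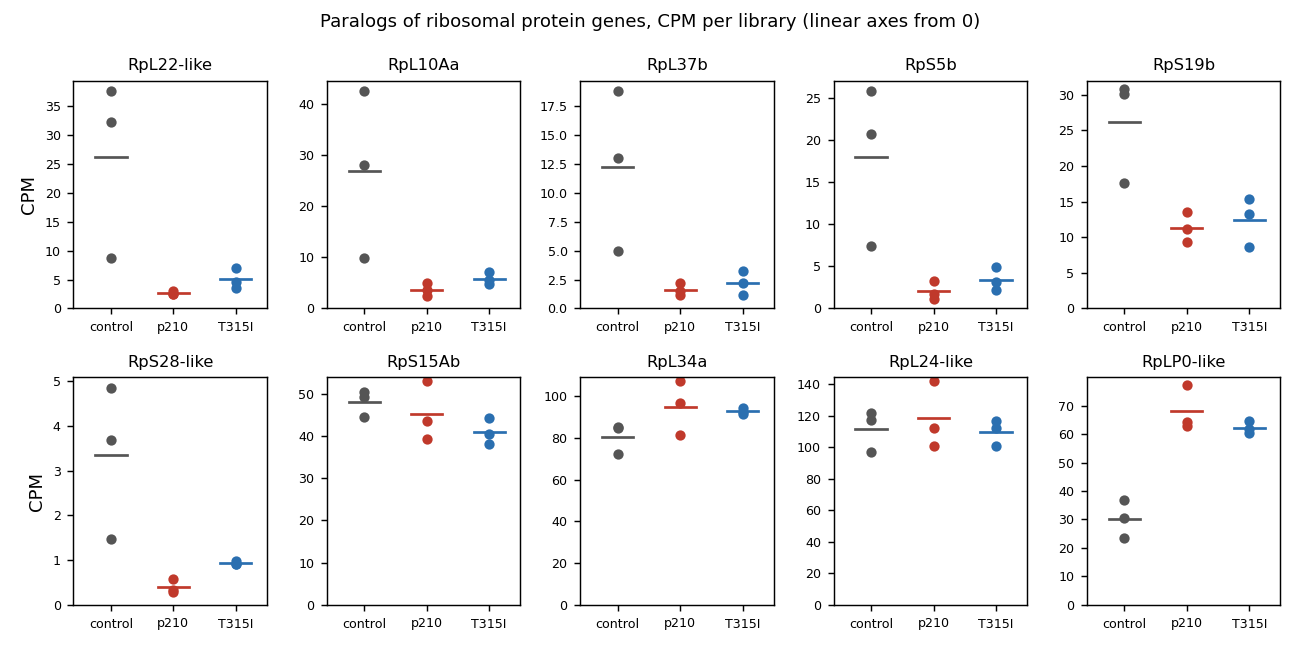
CPM of the 10 tested paralogs in each library, with the group mean as a bar, on linear axes from 0 that differ between panels. In the 6 duplicates RpL22-like, RpL10Aa, RpL37b, RpS5b, RpS19b and RpS28-like the control libraries lie above all transgene libraries; RpLP0-like is the reverse.

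The remaining 3 tested paralogs did not pass the test. RpS15Ab was at 50.4, 49.2 and 44.5 CPM in the control, with log2 values of -0.08 and -0.23 that did not pass the test. With the filter of 5 CPM in 3 libraries it was called lower in T315I (-0.37, adjusted p = 0.0445). For every 1000 counts of RpS15Aa control libraries held 33.4 ± 2.73 of RpS15Ab, p210 libraries 34.9 ± 1.38 and T315I libraries 35.8 ± 0.785 (SD, n = 3 each). These copies can share reads, so the ratio is uncertain. RpL34a had log2 values of 0.24 and 0.20, and RpL24-like, a relative of an assembly factor of yeast, 0.08 and -0.03, with 96.7 to 121 CPM in the control.

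RpLP0-like was the one paralog that rose. It is the fly relative of the yeast assembly factor that holds the place of the stalk protein RpLP0 in the immature large subunit. It was at 30.5, 23.6 and 36.8 CPM in the control, 77.2, 64.1 and 62.7 in p210 and 64.6, 60.5 and 61.8 in T315I. The transgene libraries lay far above all control libraries, with log2 fold changes of 1.17 ± 0.16 (adjusted p = 0.0013) and 1.04 ± 0.16 (adjusted p = 0.00342). Against every 1000 counts of RpLP0 there were 12.5, 11.9 and 20.5 of it in the control, 35.3 to 41.0 in p210 and 32.6 to 37.7 in T315I. Scaled to plasmatocyte markers the rise was 0.71 and 0.59, beside medians of -0.45 and -0.49 over all tested genes. Neither value passed edgeR's test with that scaling (adjusted p = 0.0529 and 0.106).

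Most genes of ribosome assembly rose as well. Of 10 tested genes of ribosome assembly, 9 rose in p210 and 8 in T315I, none fell, and the median log2 fold change was 0.92 and 0.80, beside 26.9% and 20.5% of all tested genes called higher with medians of 0.05 and -0.02. RpLP0-like and RpL24-like are in this list. Nopp140, a nucleolar chaperone of small nucleolar RNPs, went from 70.5, 75.2 and 120 CPM to 228, 250 and 216 in p210 and 217, 250 and 259 in T315I (1.38, adjusted p = 0.0013, and 1.45, adjusted p = 0.0024). Nop56, a core protein of the RNPs that guide methylation of ribosomal RNA, rose by 1.28 and 1.20. The methyltransferase Fib rose by 0.96 and 0.79 and the export adaptor Nmd3 by 0.88 and 0.80. Non1, a GTPase of large subunit assembly, rose by 0.51 in p210 and had 0.39 in T315I (adjusted p = 0.102). Scaled to plasmatocyte markers 3 and 2 of the 10 were called higher, none lower, with medians of 0.45 and 0.35. With that scaling 5.11% and 4.13% of all tested genes were called higher, with medians of -0.45 and -0.49. Of the listed genes, nop5 and eIF6 were at 0, under other genes.

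Initiation factors load the ribosome onto mRNA. Of 24 tested, 10 rose in p210 and 6 in T315I, none fell, beside 26.9% and 20.5% of all tested genes called higher. The medians were 0.28 and 0.22, beside 0.05 and -0.02 over all tested genes. Scaled to plasmatocyte markers they were -0.19 and -0.25 with no calls in the list, beside -0.45 and -0.49 over all tested genes. eIF3d1, a subunit of the complex that brings the mRNA to the small subunit, rose by 0.73 and 0.67, and the scaffold eIF4G1 by 0.77 and 0.79. eIF1A rose by 0.60 and 0.47. eIF5 rose by 0.88 and 1.00, the former a call lost without p210 replicate 2 (0.82, adjusted p = 0.0608), but 4.93% of its exonic length is free of other genes and its level was under 10 CPM. The count in p210 was 6 without control replicate 2 or p210 replicate 1 and 5 without p210 replicate 2, and the count in T315I was 10 without control replicate 1 and 4 without control replicate 2 or any one T315I library. eIF4B and eIF6 were at 0.

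Of the 7 elongation factors tested, 1 rose and 1 fell in p210 and 1 rose in T315I, beside 57.1% and 49.3% of all tested genes called, with medians of -0.02 and -0.08. The delivery factor eEF1alpha1, the most abundant of them, was at 14561, 12158 and 13067 CPM in the control and had log2 values of -0.02 and 0.05, and eEF2, which moves the ribosome along the mRNA, had 0.15 and 0.16. eEF1delta, a subunit of the nucleotide exchange factor, rose (0.58, adjusted p = 0.00474, and 0.52, adjusted p = 0.0112), and both calls were lost when scaled to plasmatocyte markers (0.11 and 0.06). eEF1alpha2, at 0.853 to 3.64 CPM in the control, was called lower in p210 (-1.40, adjusted p = 0.0462), a call lost when any library but control replicate 3 was left out (-0.63, adjusted p = 0.322, without control replicate 2). The call was also lost with limma-voom (adjusted p = 0.0968), no filter (adjusted p = 0.0669), only the 2 groups compared (adjusted p = 0.0814) and the replicate block (adjusted p = 0.100). The small subunit protein gene sta and Rack1, ribosomal proteins whose symbols the choice of members leaves out, had 0.25 and 0.15, and -0.10 and -0.19, and neither was called; sta was called in p210 without control replicate 1 (0.43, adjusted p = 0.0492).

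**Figure D5:**
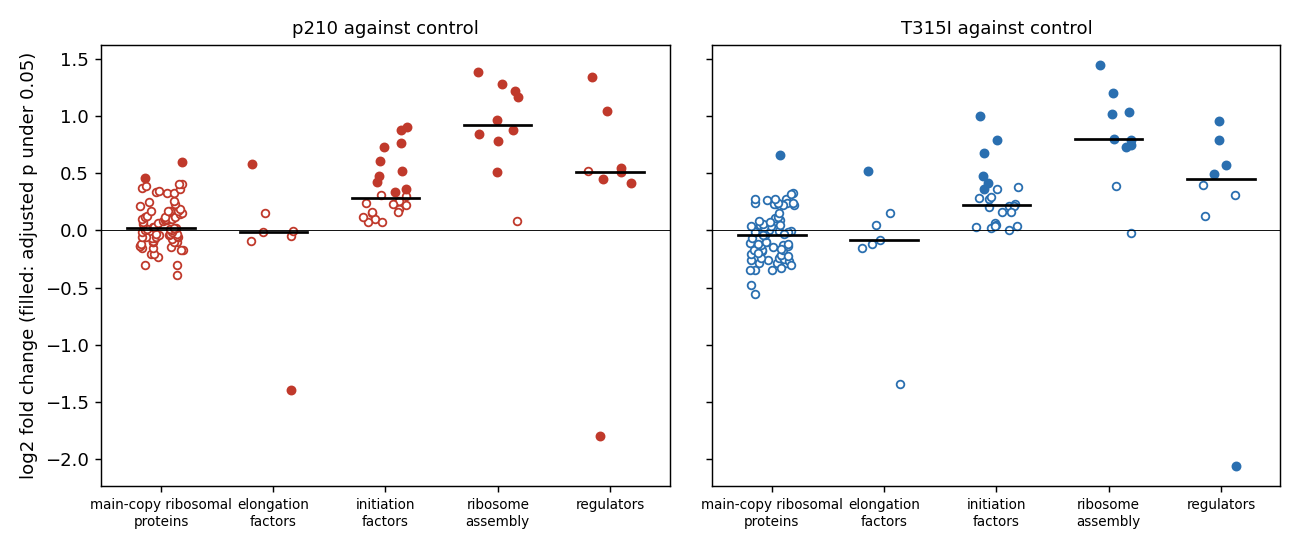
Log2 fold change against control of the 77 tested main copies and of 4 other lists of translation genes in p210 (left) and T315I (right); each point is 1 gene, filled where its adjusted p is under 0.05, and the bar is the median. The medians of the main copies are 0.02 and -0.04 and those of the assembly factors 0.92 and 0.80. Scaled to plasmatocyte markers, not drawn here, the medians of all tested genes are -0.45 and -0.49. With that scaling the main copies lie at -0.44 and -0.52, the assembly factors at 0.45 and 0.35 and the initiation factors at -0.19 and -0.25.

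A further list of 16 genes held pAbp, Tctp, Nap1 and subunits of eIF3, taken as candidates for mRNAs that start with the same stretch of pyrimidines. Whether each of these mRNAs starts so was not tested. In p210 4 of the 16 rose and none fell, and in T315I 3 rose and 1 fell. These shares of genes that rose lay at or below the 26.9% and 20.5% of all tested genes. The medians were 0.19 and 0.21, beside 0.05 and -0.02 over all tested genes. Scaled to plasmatocyte markers they were -0.28 and -0.26, beside -0.45 and -0.49 over all tested genes. Most of this list are subunits of eIF3 and are also in the list of initiation factors. The poly(A)-binding protein gene pAbp was the one that fell, from 2631, 2308 and 2202 CPM in the control to 1282, 1544 and 1471 in T315I (-0.73, adjusted p = 0.0162), a call lost without control replicate 1 (-0.59, adjusted p = 0.0567) or any T315I library. Nap1, with 24.9% of its exonic length free, rose by 0.79 and 0.66, and eIF3m by 0.36 in both. The call of eIF3m was lost in 14 of 20 alternatives in p210, 7 of them with a library left out, and in 12 of 20 in T315I, 6 of them with a library left out, and its values turned to -0.12 and -0.11 when scaled to plasmatocyte markers. Left out 1 at a time, the libraries moved the count of higher genes between 1 (without p210 replicate 1) and 5 (without control replicate 1 or p210 replicate 3) in p210, and it was 2 without control replicate 2, p210 replicate 2 or any T315I library. In T315I it was 5 without control replicate 1, 2 without control replicate 3 or p210 replicate 2, and 1 without control replicate 2 or any T315I library. The call of Nap1 was lost in p210 without p210 replicate 1 (0.64, adjusted p = 0.0628) and in T315I without control replicate 2 (0.45, adjusted p = 0.112) or any T315I library.

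Among regulators of these genes and their mRNAs, 6 of 8 tested rose and 1 fell in p210, and 4 rose and 1 fell in T315I, beside 26.9% higher and 30.3% lower in p210 and 20.5% and 28.7% in T315I over all tested genes. The medians were 0.52 and 0.45, beside 0.05 and -0.02 over all tested genes. Scaled to plasmatocyte markers they were -0.05 and -0.01, beside -0.45 and -0.49 over all tested genes, with 1 and no regulator called higher. S6k, the kinase of RpS6, was at 102, 52.5 and 123 CPM in the control and rose by 1.34 in p210 and 0.96 in T315I. The mRNA-binding protein larp rose by 1.04 in p210 and 0.79 in T315I, the latter a call lost without control replicate 1 or 2 or T315I replicate 2 or 3. The kinase Tor rose by 0.51 and 0.57, and its call in p210 was lost without p210 replicate 2 (0.44, adjusted p = 0.0626), with upper-quartile scaling (adjusted p = 0.0672), the filter of 5 CPM (adjusted p = 0.116), only the 2 groups compared (adjusted p = 0.0858) and plasmatocyte marker scaling (-0.04, adjusted p = 0.898). Thor, the 4E-BP that restrains initiation, was the gene that fell, from 21.6, 19.5 and 10.7 CPM to 4.18, 4.39 and 6.30 in p210 and 6.71, 2.53 and 3.13 in T315I (-1.80, adjusted p = 0.00569, and -2.06, adjusted p = 0.006). Its call held in all alternatives in which it was tested. The call of S6k in T315I was lost without T315I replicate 2 (adjusted p = 0.064) or replicate 3 (adjusted p = 0.0595). The number of regulators called higher in p210 was 3 without p210 replicate 2 and 4 without p210 replicate 3 or T315I replicate 2 or 3, and in T315I it was 2 without control replicate 2 and 1 without T315I replicate 2 or 3. Myc and Irbp18 were at 0, under other genes. No gene of these translation lists was called between T315I and p210.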

How the data were processed

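RNA-seq counts of 9 hemocyte libraries, 3 per group, were analysed. Per the labels' protocols, total RNA was depleted of ribosomal RNA and made into stranded libraries. The submitters' processing notes name HISAT2 2.1.0, featureCounts 2.0.1 (Subread), FastQC 0.11.8 and the dm6 build. How strand and multiply aligned reads were handled, and with which gene models, is not given in the sources used here. What the authors deposited is a single table of raw counts, whose 9 columns were matched by group and replicate number, with 0 unused. Coordinates, exonic length and overlaps come from an Ensembl annotation of the same assembly, in which all 92 members and 17835 genes in all were matched by symbol. RpL37a and RpL37b are RpL37-1 and RpL37-2 there. Bop1, of the assembly list, was not analysed here.

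All 9 libraries were fitted with edgeR 4.0.16, limma 3.58.1 and R 4.3.3 (filterByExpr, TMM, robust quasi-likelihood, 1 mean per group). Tests were two-sided, with Benjamini-Hochberg adjustment over 9978 tested genes and a threshold of 0.05. Standard errors were taken from the log2 fold change and the F statistic, and they and the 95% intervals are approximate. CPM use TMM-scaled library totals. Depth was 5.40 to 18.16 M counts per library, and counting intervals and limits cover counting error only. The p-values rest on the spread between libraries that the labels call biological replicates. No pair of libraries was identical, and the spread within each group exceeded sampling noise. The test was tried on simulated data with 200 changed genes.

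Members and lists were chosen with earlier results of these data known. Genes named were, per comparison, the 4 highest and 4 lowest main copies, all tested paralogs, the stalk and ubiquitin-fusion genes, RpL22, RpS6, RpL32, RpS3, sta and Rack1, the 3 highest and 3 lowest per length, members at 0, and up to 3 called genes per list (the 2 most abundant where none was called). RpL17, RpL23A, RpS10b, Fib, Nmd3, Non1, dpr4 and the testis and germ line markers were named after their values were seen. One gene that this rule names is not reported here. Alternatives were RLE and upper-quartile scaling, TMM without the members, scaling to the summed counts of 13 plasmatocyte markers, DESeq2 1.42.0, limma-voom, no filter, a filter of 5 CPM in 3 libraries, the 2 compared groups alone, a replicate block, libraries thinned to the smallest, and each library left out.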

Additional observations from a re-analysis of the deposited data

How the results depend on the processing

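Results were recomputed under 20 alternatives, 11 of method and 9 that left out a library. In p210 against control the number of main copies called higher, 2, was 1 under RLE scaling, 0 under upper-quartile scaling, 0 under plasmatocyte marker scaling, 5 with DESeq2, 0 with a filter of 5 CPM in 3 libraries, 0 with only the 2 groups compared, 5 with a replicate block and 1 when thinned to the smallest library; leaving out a library gave 0 to 11. The number called lower, 0, was 2 under plasmatocyte marker scaling and 3 with the filter of 5 CPM; leaving out a library gave 0 to 3. In T315I against control the number called higher, 1, was 0 under plasmatocyte marker scaling and 2 with only the 2 groups compared, and 1 to 2 when a library was left out. The number called lower, 0, was 2 under upper-quartile scaling, 10 under plasmatocyte marker scaling, 3 with DESeq2, 6 with the filter of 5 CPM and 1 when thinned, and 0 to 4 when a library was left out. Between T315I and p210 it stayed 0 in both directions under all 20.

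The median log2 fold change of the main copies was -0.44 in p210 and -0.52 in T315I under plasmatocyte marker scaling, where the median of all tested genes was -0.45 and -0.49; of all genes called, 510 were then higher and 3565 lower in p210 (2681 and 3019 in the reported fit) and 412 and 3514 in T315I (2048 and 2867). Upper-quartile scaling gave 1865 higher and 3315 lower in p210. With the filter of 5 CPM the median was -0.18 in p210 and in T315I. Left out 1 at a time, libraries moved the medians between -0.10 and 0.17 in p210, -0.12 and 0.08 in T315I, and -0.19 and 0.05 in T315I against p210. Under plasmatocyte marker scaling RpL39 turned to -0.0069 and eIF3m to -0.12 in p210. Of 2192 values of single genes 2081 kept their side of the threshold, 74 lost a call, 35 gained one and 2 reversed. The cause was not tested. These values include T315I against p210, where 1 of 9978 tested genes was called in the reported fit. A value there could hardly change side, so the share that kept its side is no measure of how stable the calls were. In p210 the call of eIF3m was lost in 14 of 20 alternatives. Where they were tested, the calls of the 6 lower paralogs held in all alternatives.

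Replicate numbers did not pair the libraries: same-numbered libraries of different groups correlated between -0.318 and 0.166 in their deviations, and 2 of 9 correlated best with their own number. With the replicate block 5 main copies were called higher and none lower in p210, RpL10 (0.39, adjusted p = 0.0474), RpL13A (0.40, adjusted p = 0.0493) and RpL17 beside RpL22 and RpL39, and 1 and none in T315I. Low counts limit RpS28a and RpS28-like.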
